A study of Mus musculus with 4 samples.

Results

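The genes described here are antiviral effectors that cells transcribe in response to interferon: the IFIT genes Ifit1, Ifit2 and Ifit3, the viperin gene Rsad2, the Mx genes, Isg15, the ISG15-removing protease gene Usp18, the tetherin gene Bst2 and the exonuclease gene Isg20. Members were all non-control probes whose accession maps, through a RefSeq gene table, to 1 of these 10 gene symbols. Of 41174 non-control probes on the array, 12 did so, covering 8 genes, and all 12 could be tested. No probe accession mapped to Mx1 or Mx2, which are not analysed here. Rsad2 had 3 probes, Ifit2 and Isg20 had 2 each and the other 5 genes had 1.

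RNA came from mouse microvascular smooth muscle cells derived from a Rap1a knockout model, from male C57BL6 animals, and each of 4 two-colour arrays on 1 slide set cells transduced with a RapCA shuttle vector (Cy3) against cells transduced with an empty shuttle vector (Cy5). The knockout, growth in 10% serum and the viral transduction at plating were common to both kinds of cells. So were the overnight serum-free medium and the 48 h of recovery in 0.5% serum. Neither group therefore shows the level in untransduced cells or in cells from animals with an intact Rap1a gene. The labels call the arrays biological replicates but do not say whether cultures or animals were separate, so p-values measure only the spread between these 4 RNA pairs, and the dyes were never exchanged, so dye and vector cannot be told apart. The labels do not spell out the name RapCA. The series title describes the design as knockout and rescue.

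Across the series, 51.3% to 62.9% of probes were well above background in a channel. Replicate 1 had the lowest share, in Cy5. Over 23485 probes, Pearson's r of log2 ratios was 0.69 to 0.78 for pairs of arrays with replicate 1 and 0.93 to 0.98 for pairs without it. Log2 ratios below are the channel labelled RapCA over that labelled vector, as mean ± SD of 4 arrays, so a negative one means less signal in the channel labelled RapCA. Rap1a itself stood at -1.06 ± 0.44 (limma adjusted p = 0.00204), and its close relative Rap1b at 0.80 ± 0.54 (adjusted p = 0.0134). Mean log2 levels of the Rap1a probe were 11.68 in Cy3 (RapCA) and 12.74 in Cy5 (vector), although the cells are described as lacking Rap1a. Its signal was thus lower, not higher, with RapCA by the labels, although the series is described as a rescue. The cause was not tested. Where the Rap1a probe lies relative to the deleted part of the gene or to the vector is not known here. All directions rest on the recorded dyes, and every sign would turn if the dyes had been exchanged in the record. Among markers of smooth muscle, 8 of 12 were above background on every array in both channels, Acta2, Tagln and Cnn1 included. Myh11 was also among the 8 but dim, at mean log2 levels of 6.62 and 6.49 in the channels labelled RapCA and vector. Des, Myocd, Pln and Synpo2 were above background on no array. The summed log2 level of that list was 18.8 to 18.9 in the channel labelled RapCA and 17.7 to 18.0 in the channel labelled vector. Of 12 leukocyte and macrophage markers on the array, 5 to 6 were above background in the channel labelled RapCA and 4 to 5 in the channel labelled vector, at summed log2 levels of 10.76 to 10.903 and 10.68 to 10.96 in those channels. Ptprc, Itgam, Adgre1, Fcgr1, Tyrobp and Siglech were above background on no array. The summed levels of this and the other marker lists include probes not above background, so they are not marker signal alone.

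Interferons bind cell surface receptors that act through JAK kinases on transcription factors, and a complex of these that holds STAT2 and IRF9 binds a DNA element called the interferon-stimulated response element, or ISRE, in the promoters of its targets. Vascular smooth muscle cells carry such receptors and can also start the response themselves through sensors of viral RNA or of misplaced DNA. The products of the genes described here act at different steps of a viral life cycle, and Usp18 in addition dampens signalling from the type I interferon receptor.

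Promoter sequences are shown because the genes are known as targets of that element. RefSeq promoters (GRCm38.p6, 250 bases before to 50 after each start) were found for 7 of the 8 genes, with none matched for Usp18. The core of the element was searched as GAAA, any 2 bases and GAAA again, on both strands (on the other, TTTC, any 2 bases and TTTC), overlapping matches included. It occurred in 5 of the 7 genes, Ifit1, Ifit3, Rsad2, Isg15 and Bst2, against 3.99% of all 27025 genes with such a window (3.44% of 32851 promoters). In the lists described further on it occurred in 11 of 31 other antiviral genes and 5 of 11 nucleic acid sensors and adaptors. It occurred in 3 of 13 signalling genes, 3 of 10 ligands and receptors and 3 of 7 relatives and neighbours of the members. One of 8 smooth muscle markers had it, Mylk, which was higher at 1.55. It occurred in 0 of 4 enzymes of ISG15 conjugation. All 4 of these enzymes were called lower, where 24.9% of all genes were. Of the antiviral genes with the core, Oas1a, Ifitm3, Trim30a, Gbp2, Gbp3, Irgm1 and Igtp were called lower, at log2 ratios of -3.89 to -0.52. Ifitm2 was higher at 0.49, and Oas1g, Oas3 and Ddx60 were not tested. Not every listed gene had a window, and Oasl2, Oasl1 and Rtp4, at -4.95, -5.09 and -4.64, were not among the genes with the core. Among relatives of the members with it, Ifit3b had -1.64 and Ifit1bl1 0.21, which was not called. These genes were named after their values were seen, and a link of core and ratio was not tested. The 250 bases upstream of the start of the 5 members with the core follow, read 5′ to 3′ towards the gene, matches in capitals.
Ifit1, chr19:34640639-34640888, + strand: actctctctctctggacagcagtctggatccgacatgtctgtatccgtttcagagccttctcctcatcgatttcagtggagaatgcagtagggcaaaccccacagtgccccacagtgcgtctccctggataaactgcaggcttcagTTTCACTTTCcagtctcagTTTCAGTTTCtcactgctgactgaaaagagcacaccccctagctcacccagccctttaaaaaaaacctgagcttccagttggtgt
Ifit3, chr19:34583279-34583528, + strand: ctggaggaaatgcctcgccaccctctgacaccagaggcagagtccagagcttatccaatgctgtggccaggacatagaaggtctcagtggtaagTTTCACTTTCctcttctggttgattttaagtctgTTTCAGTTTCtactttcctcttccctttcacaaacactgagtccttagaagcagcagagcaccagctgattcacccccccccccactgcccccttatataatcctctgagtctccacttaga
Rsad2, chr12:26456453-26456702, - strand: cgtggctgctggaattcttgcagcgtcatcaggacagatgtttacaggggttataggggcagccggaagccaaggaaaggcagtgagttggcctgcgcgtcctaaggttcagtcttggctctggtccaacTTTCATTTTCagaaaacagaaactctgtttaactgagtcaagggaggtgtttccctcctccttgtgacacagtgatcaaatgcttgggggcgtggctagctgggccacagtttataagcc
Isg15, chr4:156200819-156201068, - strand: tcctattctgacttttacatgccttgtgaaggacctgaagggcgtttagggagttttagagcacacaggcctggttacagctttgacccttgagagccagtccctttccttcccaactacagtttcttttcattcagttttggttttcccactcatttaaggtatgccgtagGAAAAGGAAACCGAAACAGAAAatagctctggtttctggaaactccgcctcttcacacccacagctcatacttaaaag
Bst2, chr8:71537473-71537722, - strand: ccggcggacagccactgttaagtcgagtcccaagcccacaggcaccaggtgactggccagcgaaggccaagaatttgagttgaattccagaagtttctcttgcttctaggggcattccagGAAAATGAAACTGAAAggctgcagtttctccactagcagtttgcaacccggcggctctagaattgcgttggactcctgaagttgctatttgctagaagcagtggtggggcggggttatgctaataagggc

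Isg15 held 3 overlapping matches in a run that ended 57 bases before its start, and Bst2 held 2 overlapping ones that ended 115 bases before its start. Ifit1 and Ifit3 each held 2 separate matches and Rsad2 held 1. The letters were in neither of the 2 promoter windows of Ifit2 nor in any of the 3 of Isg20, which says only that these letters are not in these windows. A second element bound by STAT dimers, searched as TTCNNNGAA, was found in windows of Bst2, Ifit2 and Isg20 and in those of 9.55% of all genes (8.30% of promoters). A match is a description of sequence and was not set against binding data.

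Antiviral effector RNA was lower in the channel labelled RapCA for all 8 genes measured. Of the 12 probes, 11 were called lower at a limma adjusted p under 0.05 and none was called higher, where 23.2% of all 23497 probes tested were called lower, 26.4% higher and 49.6% in either direction. By gene, 24.9% of all genes were called lower and 53.9% in either direction. At the brightest probe of each gene the median log2 ratio was -3.12, against 0.02 over all 12388 genes tested. A decrease of at least 2-fold was seen for 8 of the 12 probes and 6 of the 8 genes, where 5.82% of all probes and 7.47% of all genes were called with one. A decrease of at least 8-fold was seen for 4 probes and 4 genes, where 0.217% of probes and 0.347% of genes were. For 9 of the 12 probes every level in the channel labelled RapCA lay below every level in the channel labelled vector, which was so for 19.2% of all probes. In bulk RNA, fewer cells of a kind and less RNA per cell cannot be told apart.

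**Figure D1:**
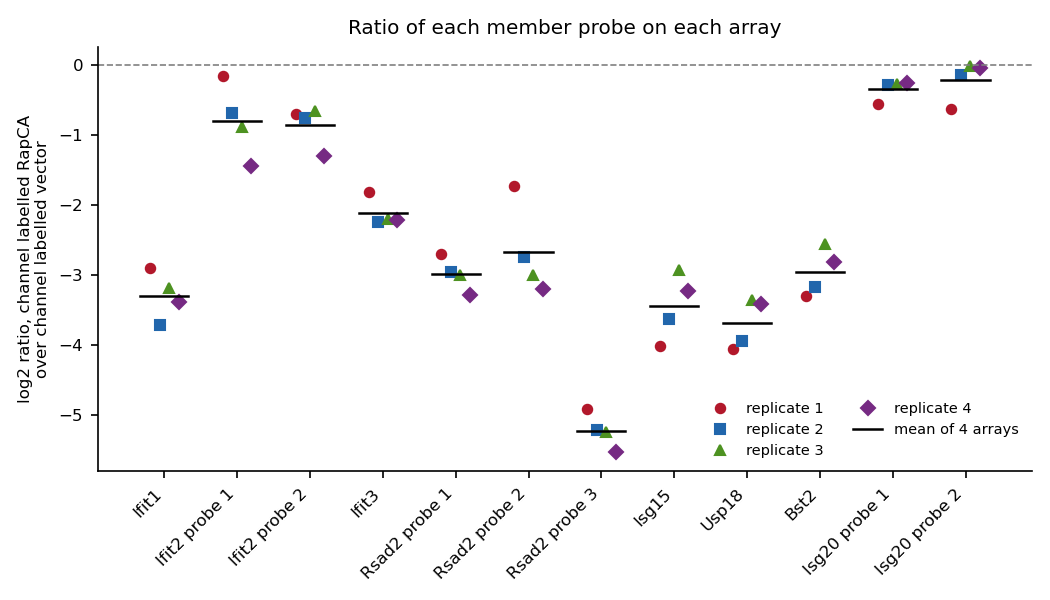
Log2 ratio of RapCA (Cy3) over vector (Cy5), by the labels (vertical axis), for each of the 12 probes, with 1 symbol per array and a bar for the mean of 4 arrays. All values lie below 0, from -5.53 for Rsad2 probe 3 on replicate 4 to -0.01 for Isg20 probe 2 on replicate 3.

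Rsad2 encodes viperin, a radical SAM enzyme that makes a chain-terminating nucleotide. At its brightest probe, probe 3, the log2 levels were 6.54, 6.86, 7.18 and 7.11 in the channel labelled RapCA on replicates 1 to 4, against 11.44, 12.07, 12.41 and 12.63 in the channel labelled vector. The channels lay far apart on every array, and replicate 1 was the lowest in both. Its ratio was -5.22 ± 0.25 (SD, n = 4; limma adjusted p = 4.37e-06), a 37.2-fold lower signal, and 4 of the 23497 probes tested had a lower ratio. The scanner software's own ratios gave 91.3-fold and a smaller background offset gave 60.1-fold for this probe. The other Rsad2 probes were dimmer, and the fold they give is limited by the background and by the offset added to the signal. Probe 1 (-2.98 ± 0.24) was above background in the channel labelled RapCA on 2 of 4 arrays, and probe 2 on none. Probes 1 and 2 gave 7.89- and 6.32-fold here, and 15.6- and 13.0-fold with the smaller offset. The scanner software's ratios gave 67.2- and 70.5-fold for them. For probe 2 the signal was at least 6.32-fold lower in the channel labelled RapCA (adjusted p = 0.000151), the bound being set by its own level there.

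Ifit1, Ifit2 and Ifit3 encode tetratricopeptide repeat proteins, of which Ifit1 binds foreign RNA ends and the others associate with related proteins or RNA. They lie together on chromosome 19 and did not differ between channels to the same degree. Ifit1 had log2 levels of 7.89, 7.83, 8.60 and 8.45 in the channel labelled RapCA and 10.79, 11.54, 11.78 and 11.82 in the channel labelled vector. Its channels did not overlap, and its ratio was -3.29 ± 0.34 (9.79-fold lower; limma adjusted p = 1.71e-05). Ifit3 had 10.59, 10.93, 11.39 and 11.28 in the channel labelled RapCA and 12.39, 13.17, 13.58 and 13.48 in the channel labelled vector, again without overlap. Its ratio was -2.11 ± 0.20 (4.31-fold lower; adjusted p = 2.94e-05). Ifit3b, a close copy of Ifit3 in the same cluster, had -1.64 ± 0.43 (adjusted p = 0.000286), and the signals of the copies may not be separable on this array.

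Ifit2 differed least within that family. Its first probe had log2 levels of 8.38, 9.15, 8.99 and 8.52 in the channel labelled RapCA and 8.53, 9.82, 9.88 and 9.96 in the channel labelled vector, with the channels overlapping through replicate 1. The ratios on replicates 1 to 4 were -0.15, -0.67, -0.88 and -1.44, with a mean of -0.79 ± 0.53 (1.73-fold lower; limma adjusted p = 0.0135). That call was lost with median centring (adjusted p = 0.115) and without pairing of the channels (0.0808), in a range of 4.28e-07 to 0.115 over the alternatives. The second probe had 7.58, 8.26, 8.22 and 7.87 in the channel labelled RapCA and 8.27, 9.01, 8.87 and 9.17 in the channel labelled vector, and the highest value of the channel labelled RapCA only just stayed below the lowest of the channel labelled vector. Its ratio was -0.85 ± 0.30 (1.80-fold lower; adjusted p = 0.00192) and it was called under all 15 alternatives that tested it.

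The order within the IFIT family was the same on each array. The ratio of Ifit1 minus that of Ifit3 was -1.48 to -0.99 log2 units, with a mean of -1.18 ± 0.21. The ratio of Ifit3 minus that of Ifit2 (first probe) was -1.65 to -0.76, with a mean of -1.32 ± 0.40. An exact two-sided permutation test over the 4 arrays gave p = 0.125 for either difference (0.125 after adjustment over the 4 pairs compared), which is the smallest that 4 arrays allow.

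Isg15 encodes a ubiquitin-like protein that is joined to other proteins, and Usp18 the protease that removes it. Isg15 had log2 levels of 9.31, 8.84, 9.83 and 9.80 in the channel labelled RapCA, against 13.31, 12.46, 12.76 and 13.02 in the channel labelled vector. Usp18 had 9.53, 9.11, 10.01 and 10.13 in the channel labelled RapCA, against 13.59, 13.04, 13.35 and 13.54 in the channel labelled vector. Neither gene's channels overlapped. The ratios were -3.44 ± 0.47 for Isg15 (10.87-fold lower; limma adjusted p = 2.57e-05) and -3.69 ± 0.36 for Usp18 (12.9-fold lower; adjusted p = 1.51e-05). The ratio of Usp18 minus that of Isg15 was -0.42 to -0.05 on the 4 arrays, with a mean of -0.24 ± 0.16 (exact permutation p = 0.125, the smallest possible). The ratio of Rsad2 minus that of Usp18 was -2.12 to -0.85, with a mean of -1.53 ± 0.58 and the same p.

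The enzymes that attach ISG15 were lower too, by less. All 4 tested were called lower at a median of -1.03, where 24.9% of all genes were called lower. With median centring or without replicate 2, 3 or 4, 3 of them were, where 17.0% to 20% of all genes were. Uba7, the activating enzyme, had a ratio of -1.11 ± 0.38 (limma adjusted p = 0.00108). Ube2l6, the conjugating enzyme, had -1.47 ± 0.26 (adjusted p = 0.000142). Herc6, the main ISG15 ligase of mice, had -0.95 ± 0.26, and Trim25, a ubiquitin ligase that can also act on ISG15, had -0.65 ± 0.41 (adjusted p = 0.000848 and 0.0140). Both probes of Herc6 and both of Trim25 were called lower.

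Bst2, or tetherin, is a membrane protein that holds budding virus particles at the cell surface. Its log2 levels were 12.38, 12.00, 12.76 and 12.57 in the channel labelled RapCA, against 15.67, 15.17, 15.31 and 15.39 in the channel labelled vector, with no overlap and no saturated spot. The ratio was -2.96 ± 0.34 (7.76-fold lower; limma adjusted p = 2.25e-05).

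Isg20, an exonuclease that degrades single-stranded RNA, had the mean ratio nearest to 0 among the 8 genes. Its first probe had log2 levels of 12.05, 11.73, 11.88 and 12.00 in the channel labelled RapCA and 12.60, 12.01, 12.14 and 12.25 in the channel labelled vector, which overlap. The ratio was -0.34 ± 0.14 (1.26-fold lower; limma adjusted p = 0.0310), and it was called under 9 of 16 alternatives, whose adjusted p ran from 0.000940 to 0.122. Its second probe had 10.57, 10.28, 10.44 and 10.58 in the channel labelled RapCA and 11.19, 10.42, 10.46 and 10.61 in the channel labelled vector. That ratio, -0.20 ± 0.29, did not pass (adjusted p = 0.235), nor did it under any of the 15 alternatives that tested it (0.0722 to 0.460). Aen and Isg20l2, exonuclease genes related to Isg20, had ratios of -0.44 ± 0.09 and -0.41 ± 0.22 (adjusted p = 0.00817 and 0.0234), each with 1 of 2 probes called.

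**Figure D2:**
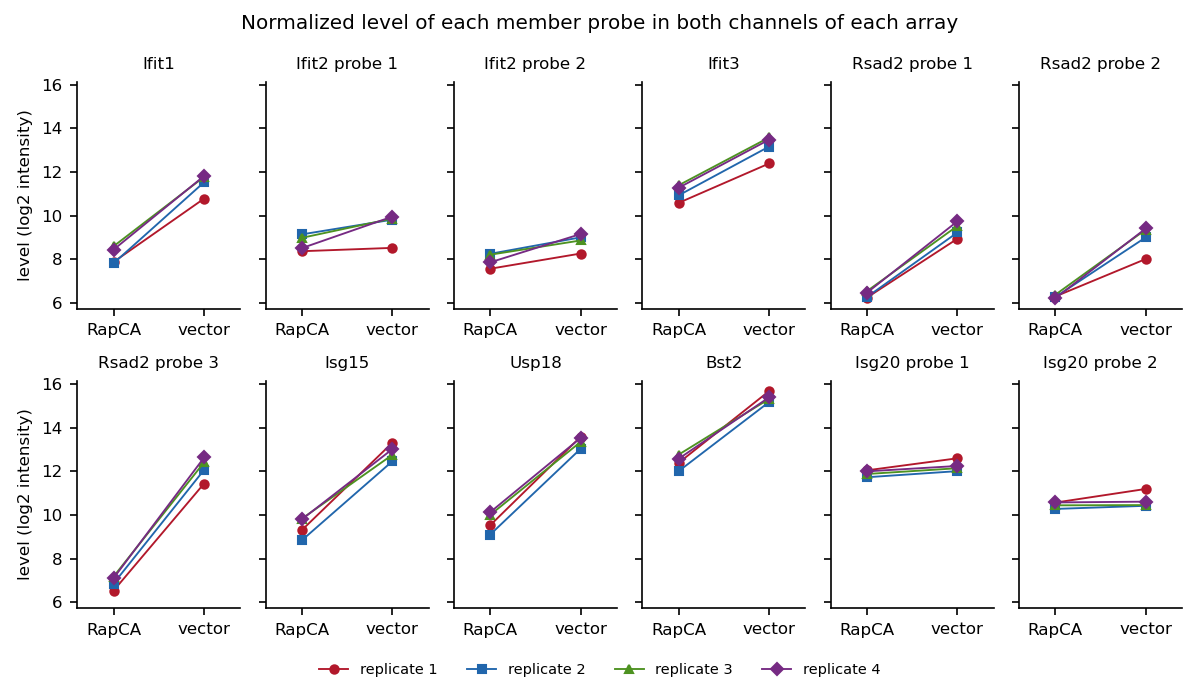
Normalized log2 level of each probe (vertical axis) in the channel labelled RapCA and the channel labelled vector, with 1 line per array joining its channels. The lines climb steeply to the channel labelled vector for Rsad2, Ifit1, Ifit3, Isg15, Usp18 and Bst2 and are nearly flat for Isg20, at mean levels of 11.9 and 12.2 for its first probe.

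By the spread over arrays at the brightest probe of each, the 8 genes fell into a rough order. Rsad2 had the lowest ratios, from -5.53 to -4.91, apart from all others. Its dimmer probes, from -3.28 to -2.70 and from -3.20 to -1.72, lay among the ratios of other genes. Usp18 (-4.06 to -3.35), Isg15 (-4.00 to -2.93), Ifit1 (-3.71 to -2.90) and Bst2 (-3.29 to -2.55) overlapped along that order. Ifit3 (-2.24 to -1.80) lay above them and below Ifit2 (-1.44 to -0.15), and Ifit2 overlapped Isg20 (-0.55 to -0.25). The second Ifit2 probe, from -1.30 to -0.65, overlapped neither Isg20 probe.

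The arrays did not rank alike for all genes. On replicate 1 the ratios of Isg15, Usp18, Bst2 and both Isg20 probes were the lowest of the 4 arrays, at -4.00, -4.06, -3.29, -0.55 and -0.63. On the same array the ratios of Ifit1, Ifit3, the first Ifit2 probe and all 3 Rsad2 probes were the highest, at -2.90, -1.80, -0.15, -2.70, -1.72 and -4.91. With median centring in place of the intensity-dependent fit, none of the 12 probes was lowest on replicate 1 and 11 were highest there, all but Isg15. With the scanner software's ratios, Isg15, Usp18, Bst2, Isg20 and 2 Rsad2 probes were lowest on replicate 1. The median net Cy5 signal of that array was 37, against 75.5 to 83.5 on the others, and the part of this in the split was not tested. Without replicate 1 the ratios were -5.32 for Rsad2, -3.56 for Usp18, -3.42 for Ifit1, -3.26 for Isg15, -2.85 for Bst2 and -2.21 for Ifit3. They were -1.001 and -0.90 for the Ifit2 probes and -0.26 and -0.06 for the Isg20 probes. In that fit 11 probes were called lower, all but the second of Isg20. Of all probes 33.1% were called lower there, against 23.2% with all 4 arrays.

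**Figure D3:**
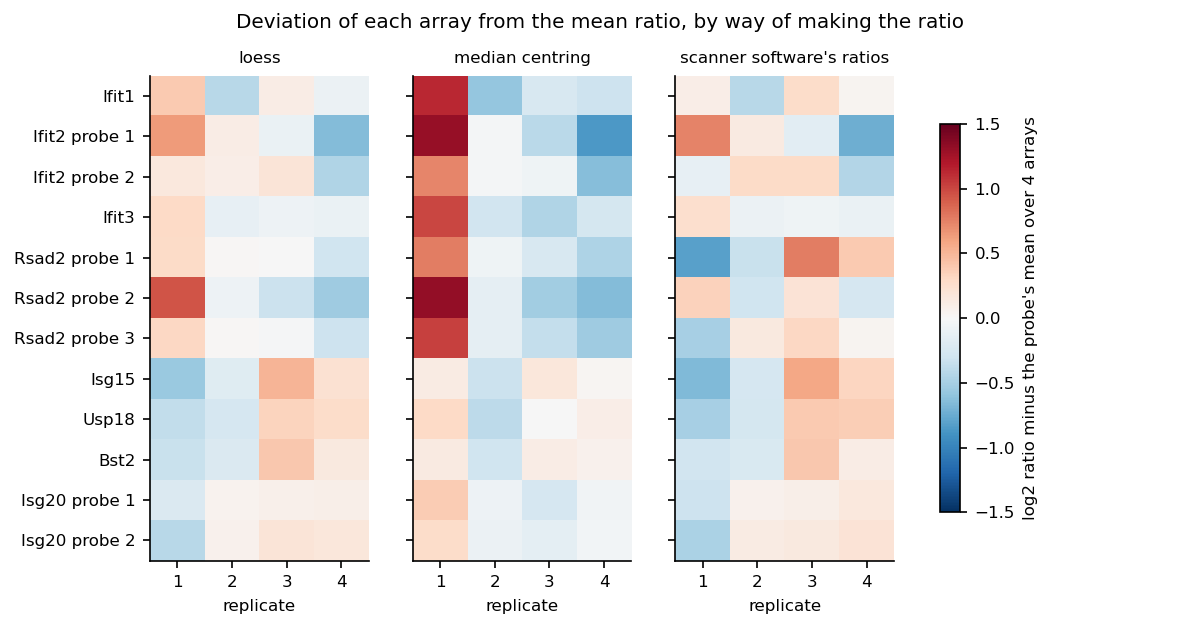
Deviation of each array's log2 ratio from the probe's mean over 4 arrays (colour) for the 12 probes (rows) on replicates 1 to 4 (columns), with ratios made by loess, by median centring and by the scanner software. Replicate 1 splits the probes by loess, with Isg15 at -4.00 there and Ifit1 at -2.90, and lies above the mean for nearly all probes by median centring.

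Other genes of the interferon pathway, grouped by role, are given by the brightest probe of each. These lists were chosen with earlier results of these data known. Among other interferon-stimulated antiviral genes, 27 of 32 tested were lower and 3 higher, with a median log2 ratio of -1.72, where 24.9% of all genes were called lower and 28.9% higher. Oasl2 and Oasl1, relatives of the oligoadenylate synthetases, Rtp4 and Nmi had the smallest p, at -4.95 ± 0.19, -5.09 ± 0.40, -4.64 ± 0.35 and -2.43 ± 0.16. Samhd1, which depletes nucleotides, and Ifitm1, a membrane protein that hinders virus entry, had the largest p, at 0.00 ± 0.23 and 0.13 ± 0.18. Ifitm2 and Znfx1 were among the higher genes, at 0.49 ± 0.09 and 0.56 ± 0.32, and were named after their values were seen.

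Of 13 nucleic acid sensors and adaptors tested, 8 were lower and 1 higher, where 24.9% of all genes were called lower and 28.9% higher. The median was -0.83. The RNA sensors Dhx58 and Ifih1 had ratios of -2.32 ± 0.27 and -2.40 ± 0.37, the DNA sensor Cgas had -1.48 ± 0.18 and Zbp1 had -1.56 ± 0.21. The adaptor Sting1 and the kinase Tbk1 had the largest p, at 0.07 ± 0.10 and -0.08 ± 0.71, and did not pass by the brightest probe. For Tbk1, 1 of 2 probes was called lower. Ticam1, the adaptor of Tlr3, was the 1 higher gene at 0.80 ± 0.43 and was also named after its value was seen.

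In the signalling list 7 of 14 genes were lower and 3 higher, where 24.9% of all genes were called lower and 28.9% higher. The list's median was -0.34, or -0.54 when arrays were centred on their medians. Irf7, a factor that amplifies interferon production, had -2.79 ± 0.55, and Stat2 and Irf9, parts of the complex that binds the element searched above, had -1.43 ± 0.36 and -1.10 ± 0.22. For Irf9, 1 of 2 probes was called lower. Stat3 was higher at 1.30 ± 0.05. The genes with the largest p were Irf5 and Irf1, at 0.09 ± 0.13 and -0.17 ± 0.08. For Irf1, 1 of 2 probes was called higher, though not the brightest. The number of lower genes in this list was 4 without pairing of the channels and with the scanner software's ratios, and 3 to 8 when 1 array was left out (3 without replicate 2 or 3, where 17.4% and 17.0% of all genes were called lower, and 8 without replicate 1, where 34.5% were).

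Of 5 receptor chains tested 4 were higher and none lower, where 28.9% of all genes were called higher (limma adjusted p from 0.000557 to 0.00184 for the 4). Their median was 0.76, against 0.44 with median centring and 0.17 over the ligand and receptor list with no filter on dim probes. Ifngr1, Ifnar1, Il10rb and Ifngr2 had ratios of 0.85 ± 0.13, 0.80 ± 0.18, 0.65 ± 0.12 and 0.76 ± 0.23. Ifnar2 and Ifngr2 had the largest p, Ifnar2 at 0.18 ± 0.18 (limma adjusted p = 0.200). For Ifnar2, 1 of 2 probes was called higher, though not the brightest. The ligand genes Ifnb1, Ifna2, Ifna4 and Ifng had probes on the array that did not pass the filter on signal, so neither channel was above background on all 4 arrays.

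**Figure D4:**
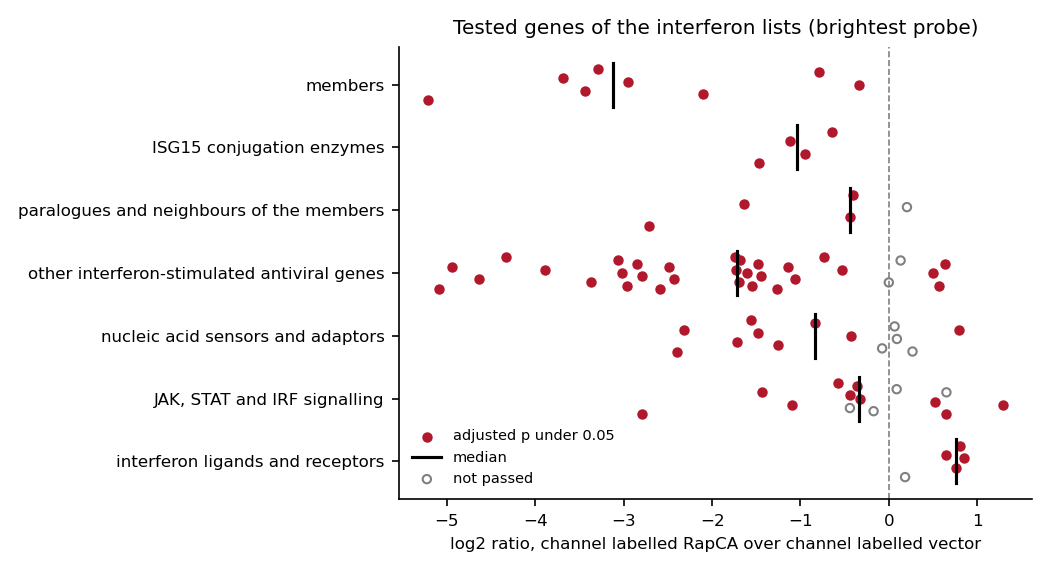
Log2 ratio of RapCA (Cy3) over vector (Cy5), by the labels (horizontal axis), for each tested gene of 7 lists (rows), filled where the limma adjusted p was under 0.05, with the median as a bar. The antiviral effectors described here have a median of -3.12, the ISG15 conjugation enzymes -1.03 and the receptors 0.76.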

How the data were processed

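Total RNA was labelled with Cy3 (RapCA) or Cy5 (empty vector) and hybridised in pairs to 4 arrays. The intensity values deposited in the scanner files are median spot and local background brightness, not normalized, from Agilent Feature Extraction 10.7.3.1 per the file headers (10.9 per the submitters' processing notes). The deposited log10 ratios, in the scanner files and the series' value table, set Cy5 over Cy3 and were background-subtracted, detrended and dye-normalized, per the file headers. Both sources matched within 5e-05 for 40929 single-spot probes, and the median of every column was 0.

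Background was corrected here with normexp (offset 50) and ratios were normalized by loess within arrays, control spots having no weight. Outlier spots (94 to 137 an array) were dropped and the spots of each probe averaged. Probes for which 1 or both channels were well above background on every array were tested against 0 with limma (lmFit, eBayes; at least 3 arrays) and Benjamini-Hochberg adjustment over 23497 probes, called under 0.05. Ratios are log2 of Cy3 over Cy5, levels are log2 after Aquantile scaling, and ± is the SD over arrays; the number of arrays limits the precision. Symbols came from RefSeq by accession (64.8% of probes); its genome build differs from that of the files, so no probe was placed. The scripts were tested on simulated data. Alternatives covered offset, ratios of the scanner software and the table, centring, separate channels, no pairing, filters, outliers, variance model, array weights, each array left out and genes in place of probes.

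Members and lists were chosen with earlier results of these data known. Named were all members, the ISG15 enzymes, the members' relatives and neighbours, and from each other pathway list the 4 genes with the smallest and the 2 with the largest p, with the 5 genes nearest in pattern. Some list genes are counted but not reported here by name. Marker lists covered smooth muscle, pericytes, endothelium, leukocytes, fibroblasts and epithelium. Tools were R 4.3.3, limma 3.58.1, statmod 1.5.0, the data.table package (1.17.8), Python 3.11.15, pandas 2.3.3 and matplotlib 3.10.9.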

Additional observations from a re-analysis of the deposited data

Results flagged for a closer look

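Among 45 sets of 4 array values checked for these genes and their relatives, 4 held an array set apart from the other 3 by more than Dixon's 95% critical value of 0.829, and chance gives such a flag in about 1 set of 20. On replicate 1 the first Ifit2 probe had a level of 8.53 in the channel labelled vector, against 9.82 to 9.96 on the other arrays. The Ifit3 ratio was -1.80 on replicate 1, against -2.24 to -2.19 elsewhere. The ratio of the first Isg20 probe was -0.55 on replicate 1, against -0.28 to -0.25. On replicate 4 the second Ifit2 probe had a ratio of -1.30, against -0.75 to -0.65 on the others.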

How the results depend on the processing

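Over 16 alternatives no member's mean ratio over arrays changed sign; on replicate 1 alone, that of the first Ifit2 probe was 0.35 with median centring, against -0.15 with loess. Of the values recomputed for the 12 probes, 177 stayed on the same side of the threshold and 9 lost a call, 2 of these at the first Ifit2 probe and 7 at the first Isg20 probe. Between 9 and 11 probes were called lower in the alternatives that did not take 1 probe a gene, where 13.7% to 37.3% of all probes were. With both channels required above background, only 10 of the 12 probes were tested. Of these 9 were called lower, where 24.6% of all probes were. With 1 array left out 10 to 11 were, where 14.9% to 33.1% of all probes were. With 1 probe a gene 8 of 8 were, where 25.4% of all genes were. Without pairing of the channels (no replicate block) 9 were called, 4685 of all probes were lower and the signalling list had 4 lower genes; the scanner software's ratios and the series table also gave 4. With median centring 2624 of all probes were higher and 3922 lower, so that 40.1% of called probes were higher against 53.3% with loess, and the median of all probes was -0.14 against 0.01. Array weights gave 8756 lower probes. With 1 brightest probe for each gene 3143 were lower and 3634 higher, since fewer features were tested. With 1 array left out, all probes called lower numbered 3518 (without replicate 3) to 8207 (without replicate 1), and 3613 without replicate 2; the relatives and neighbours of the members gave 2 (without replicate 2) to 4 lower genes and the signalling list 3 to 8. The cause of these changes was not tested. Folds of dim probes, such as 2 of the Rsad2 probes, are limited by signal over background and by the offset.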

Other observations

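Genes next to the members were compared by RefSeq order on GRCm38.p6, taking the nearest tested gene on each side, a choice made after the members' values were seen. Beside Rsad2 on chromosome 12 lie Cmpk2, a mitochondrial nucleotide kinase gene, with a log2 ratio of -2.71 ± 0.18 (limma adjusted p = 1.51e-05), and Rnf144a on the other side, with 1.72 ± 0.28 (adjusted p = 8.65e-05). The IFIT cluster on chromosome 19 is flanked by Lipa, a lysosomal lipase gene, at 0.86 ± 0.08 (adjusted p = 0.000416) and Slc16a12 at -0.23 ± 0.59 (adjusted p = 0.403). Inside it, Ifit1bl1 had 0.21 ± 0.26 (adjusted p = 0.216). The neighbours of Isg15 were Agrn and Plekhn1, at -0.82 ± 0.18 and -1.41 ± 0.64. Those of Bst2 were Plvap at -1.49 ± 0.44 and Mvb12a at -0.49 ± 0.46, of which Mvb12a did not pass (limma adjusted p = 0.0537). Those of Usp18 were Pex26 and Mug2, at 0.50 ± 0.33 and 0.32 ± 0.11. Those of Mx1 and Mx2, which had no probe, were Bace2, Fam3b and Prdm15, at 0.70 ± 0.09, -0.78 ± 0.09 and 0.23 ± 0.27, of which Prdm15 did not pass (limma adjusted p = 0.174). Those of Isg20 were Aen and Acan, the second at 0.02 ± 0.13 (limma adjusted p = 0.878). In the list of relatives and neighbours of the members, 4 of 5 genes tested were lower and none higher, where 24.9% of all genes were called lower. The median was -0.44, against -0.71 with median centring and -1.04 with both channels required above background. Ifit1bl2 and Tmprss2 did not pass the filter on signal.

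The 5 other genes whose ratios on the 4 arrays lay closest to the median of the 8 members, of 12375 compared, were Usp17la, Creld2, Spink2, Stmn4 and Lgals3bp, at root mean square distances of 0.31 to 0.37 log2 units. Their mean ratios were -3.19, -2.99, -2.90, -3.09 and -2.75, and none of them is in the interferon lists used here. With 4 arrays this measure reflects the size of the ratio more than its course over arrays.

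Markers of several cell types were counted by the same test, where 24.9% of all genes were called lower and 28.9% higher, and their part in the values above was not tested. Of 8 smooth muscle markers tested 5 were higher and none lower in the channel labelled RapCA. Among fibroblast markers 5 of 7 tested were higher and none lower, with a summed log2 level of 19.4 to 19.7 in the channel labelled RapCA and 18.1 to 18.4 in the channel labelled vector. Of 5 pericyte markers 4 were higher and 1 lower, with sums of 15.1 to 15.3 and 13.6 to 14.1 in the same channels. Of 4 endothelial markers 2 were higher and 2 lower, and Pecam1, Cdh5, Emcn, Erg and Tie1 were above background on no array. Of 2 epithelial markers 1 was lower and none higher. Of 5 leukocyte markers 1 was higher and none lower, a share below that of all genes.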
